A study of Mus musculus with 12 samples.

Results

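Lipoprotein lipase (Lpl), its secreted inhibitor angiopoietin-like 4 (Angptl4) and the very low density lipoprotein receptor (Vldlr) were followed in mouse quadriceps muscle after 4 weeks of the drug GW1516, of treadmill training or of both. The members were all probe sets whose symbol in the array annotation was that of 1 of these 3 genes: 2 for Angptl4 (Entrez gene 57875), 2 for Lpl (Entrez gene 16956) and 4 for Vldlr (Entrez gene 22359). Together they made up 8 of the 22690 probe sets on the array, and 3 of the 12394 genes named by a probe set of their own. The genes were chosen by the measured Angptl4 signal per array, which was high with drug and low and scattered without it. Angptl4 is therefore described without a test, and Lpl and Vldlr are given as entries of a fit over the whole array.

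The animals were C57Bl/6J mice, and the 12 arrays fell into 4 groups of 3. Combination mice were trained on a treadmill and received GW1516 at 5 mg/kg per day, and GW mice were sedentary and received the same dose. Exercise mice were trained and received vehicle, and vehicle mice were sedentary and received vehicle. Every array held total RNA pooled from 3 mice, and the spread given here is that between such pools. GW1516 activates the nuclear receptor PPARδ. No age or sex is named in the labels used here.

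Triglyceride travels in blood inside lipoproteins and is split at the capillary wall by lipoprotein lipase, which muscle fibres and fat cells make and release. The fatty acids set free then enter the tissue. Angptl4 inactivates the enzyme, and its gene is a known target of PPAR receptors in many tissues. Vldlr belongs to the low density lipoprotein receptor family, binds triglyceride-rich particles and is abundant in muscle, heart and fat.

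Signals are in MAS5 units, on a linear scale set by the authors' global scaling. Array medians were 48.4 to 57.2. Bacterial control probe sets, which match no mouse RNA, had a 95th percentile of 23.5, taken here as the background level. The 7 fat cell markers on the array had a summed signal of 2200, 5691 and 8514 in combination arrays 1, 2 and 3, of 2481 to 2870 in GW, of 2463 to 2930 in exercise and of 2055 to 2922 in vehicle. Combination arrays 2 and 3 thus stood apart from the other 10 in fat cell RNA. Several results that rest on them are given with and without them. Without them only combination array 1 is left, so the combination then rests on a single pool. In a whole muscle, more cells of a type cannot be told apart from more RNA per cell.

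Angptl4 was higher in every array with drug than in any array without it. Probe set 1417130_s_at had signals of 156, 342 and 328 in the combination arrays and of 304, 145 and 177 in the GW arrays. The exercise arrays had 80.7, 42.5 and 9.01, and the vehicle arrays had 92.2, 37.9 and 20.1. The 6 arrays with drug spanned 145 to 342 (median 241) and the 6 without drug spanned 9.01 to 92.2 (median 40.2), with no overlap. Of the 13575 probe sets tested, 0.398% had the 6 arrays with drug all above the 6 without. GW lay above vehicle, the combination above exercise and the combination above vehicle without overlap, as did 5.54%, 7.58% and 7.94% of probe sets in these comparisons. Nothing is read from these shares, because the same signal chose the gene.

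**Figure D1:**
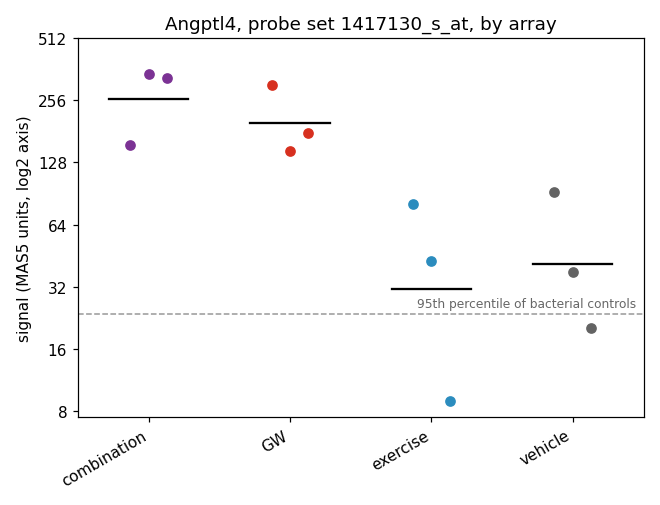
Signal of Angptl4 (probe set 1417130_s_at, MAS5 units on a log2 axis) on each of the 12 arrays, with 1 point per array in the order of array number, a black line at the geometric mean of each group and a dashed line at the background level of 23.5. The combination and GW points lie between 145 and 342, all above the exercise and vehicle points, which lie between 9.01 and 92.2.

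From high to low the group means were 275 ± 104 in the combination, 209 ± 84.3 in GW, 50.1 ± 37.5 in vehicle and 44.1 ± 35.9 in exercise (SD, n = 3 arrays each). Combination and GW overlapped and so did exercise and vehicle, so that only the step between GW and vehicle separated neighbours in this order. On the log2 scale GW differed from vehicle by 2.26 ± 0.66 (SE), a 4.80-fold difference of geometric means. This SE is limma's, drawn toward the spread of other probe sets of like signal, and from the arrays of Angptl4 alone it was 0.87 for each difference between 2 groups. The combination differed from exercise by 3.05 ± 0.66, or 8.27-fold, and from vehicle by 2.65 ± 0.66. The training differences were -0.40 ± 0.66 for exercise against vehicle and 0.39 ± 0.66 for the combination against GW, both smaller than either SE. The interaction, meaning the difference made by drug under training less the difference it made in sedentary animals, was 0.78 ± 0.94, with an SE of 1.23 from the arrays of Angptl4 alone.

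The size of the drug difference leaned in part on low signals in arrays without drug. Exercise array 3 (9.01) and vehicle array 3 (20.1) lay under the background level, so that Angptl4 was above it in 2 of 3 arrays of each of these groups. With all signals raised to at least 23.5, the log2 difference for GW against vehicle was 2.19, little changed from 2.26. For the combination against exercise it was 2.59, down from 3.05, and the training difference of exercise against vehicle was -0.01. Without exercise array 3 the difference between the combination and exercise was 2.15, and that between exercise and vehicle changed sign, to 0.50. The interaction changed sign too, to -0.12. Without vehicle array 3 the difference between GW and vehicle was 1.75. Without GW array 1, the highest Angptl4 signal of its group, it was 1.96. Other arrays left out raised the differences, to 2.84 for GW against vehicle without vehicle array 1. For the combination against exercise the difference was 3.73 without exercise array 1. Within groups the log2 signal had an SD of 0.60 in arrays with drug and of 1.39 in arrays without drug. Lpl (1415904_at) had the opposite pattern, with an SD of 0.33 in arrays with drug and of 0.12 in arrays without drug.

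Within groups, Angptl4 and the fat cell marker sum did not follow 1 order. Combination array 1 had both the lowest marker sum (2200) and the lowest Angptl4 signal (156) of its group, and vehicle array 1 had both the highest marker sum (2922) and the highest Angptl4 signal (92.2). Combination arrays 2 and 3, with the highest marker sums (5691 and 8514), had the 2 highest Angptl4 signals of all 12 arrays (342 and 328). GW array 1 had the lowest marker sum (2481) and the highest Angptl4 signal (304) of its group, and exercise array 3 had the highest marker sum (2930) and the lowest Angptl4 signal (9.01). With the fat cell marker score as a covariate, the log2 difference was 2.10 for GW against vehicle, 2.45 for the combination against exercise and 1.85 for the combination against vehicle. With combination arrays 2 and 3 left out together, the log2 difference was 2.31 between the combination and exercise and 1.92 between the combination and vehicle, while that between the combination and GW changed sign, to -0.35. The other Angptl4 probe set, 1453410_at, had signals between 0.63 and 16.4 and lay under the background level on all 12 arrays, below the filter on low signal.

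**Figure D2:**
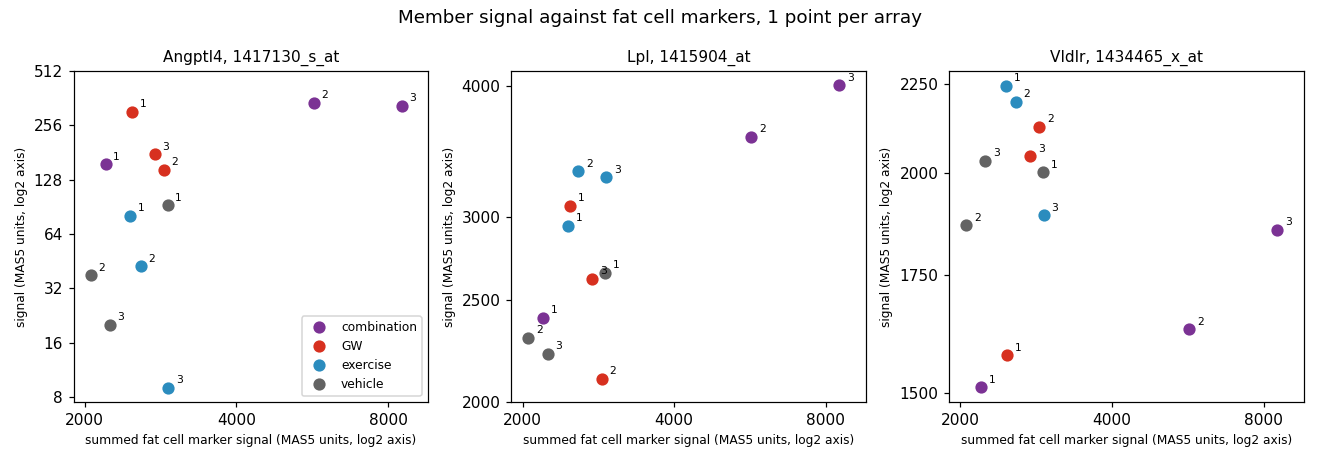
Signal of Angptl4, Lpl and Vldlr (vertical axis, MAS5 units, log2 axis) against the summed signal of 7 fat cell markers (horizontal axis, MAS5 units, log2 axis), with 1 point per array, numbered by array and coloured by group. Combination arrays 2 and 3 lie apart on the right, at 5691 and 8514. They have the 2 highest signals both of Lpl (3579 and 4004) and of Angptl4 (342 and 328). Angptl4 in the combination and GW arrays lies between 145 and 342.

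Lpl, the enzyme that Angptl4 inhibits, was called in none of the 7 contrasts. Probe set 1415904_at had signals of 2407, 3579 and 4004 in the combination arrays and of 3075, 2105 and 2620 in the GW arrays. The exercise arrays had 2945, 3318 and 3275, and the vehicle arrays had 2656, 2303 and 2224. The lowest and the highest signals of all 12 arrays were both in arrays with drug, and drug and no drug overlapped in sedentary and in trained mice. GW differed from vehicle by 0.11 ± 0.16 on the log2 scale (95% interval -0.24 to 0.45, limma adjusted p = 0.933), a comparison in which 0.0958% of all probe sets were called at an adjusted p under 0.05. The combination differed from exercise by 0.04 ± 0.16 (-0.31 to 0.38, adjusted p = 0.977, with 0.162% called). Averaged over sedentary and trained mice, drug differed from no drug by 0.07 ± 0.11 (-0.17 to 0.32, adjusted p = 0.910, with 0.317% called). The 3 intervals, from all arrays, together span -0.31 to 0.45. With combination arrays 2 and 3 left out together, the log2 difference was -0.40 for the combination against exercise and -0.15 for drug averaged. Both values then rest on combination array 1 (2407) alone for the combination, whose spread cannot be estimated from 1 array. With the fat cell marker score as a covariate these differences were -0.30 and -0.14.

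In probe set 1415904_at, over all arrays, the difference with training was larger than that with drug. All 3 exercise arrays lay above all 3 vehicle arrays, with a mean of 3179 ± 204 in exercise and 2394 ± 230 in vehicle (SD, n = 3). The log2 difference was 0.41 ± 0.16 (95% interval 0.06 to 0.76), or 1.33-fold, and did not pass (limma adjusted p = 0.398). With the fat cell marker score as a covariate it was 0.29. Of all probe sets, 8.83% had the exercise arrays above the vehicle arrays without overlap, 10.4% had an unadjusted p under 0.05 as Lpl did, and 0.0147% were called. Other values moved with this difference. The summed endothelial marker signal was 1634 to 1850 in exercise and 1466 to 1602 in vehicle, and that of muscle fibre markers was 157102 to 166557 in exercise and 134142 to 137336 in vehicle. Only 6 of the 10 endothelial markers were higher in exercise, with log2 differences between -0.44 and 0.90, while all 10 muscle fibre markers were. All 8 macrophage markers tested were higher too (median log2 difference 0.36), though their summed signal overlapped, at 1007 to 1610 in exercise and 760 to 1306 in vehicle. Of the 6 fat cell markers tested, 5 were higher (median 0.23). The ratio of 3′ to 5′ beta-actin signal, a measure of RNA integrity, was 0.763 to 0.816 in exercise and 0.838 to 1.10 in vehicle. The same ratio for Gapdh overlapped, with 0.896 to 0.940 in exercise and 0.890 to 0.906 in vehicle. Their part in the Lpl difference was not tested.

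In the combination, Lpl was high in the arrays with more fat cell RNA. The mean was 3330 ± 828 in the combination and 2394 ± 230 in vehicle, with overlap, a log2 difference of 0.45 ± 0.16 (limma adjusted p = 0.384). In this comparison 0.155% of probe sets were called and 9.98% had an unadjusted p under 0.05, Lpl among the second. Combination array 1 (2407) lay within the range of the vehicle arrays. With combination arrays 2 and 3 left out together the difference was 0.01, and with the fat cell marker score as a covariate it was -0.00. From GW the combination differed by 0.34 ± 0.16 (adjusted p = 0.856), and by -0.09 with those arrays left out. The limma fit called 0% of all probe sets in that comparison, and 5.75% had an unadjusted p under 0.05. The interaction was -0.07 ± 0.23 (95% interval -0.56 to 0.42, adjusted p = 0.961), where 0% were called and 6.79% had an unadjusted p under 0.05. From high to low the group means were those of the combination (3330), exercise (3179), GW (2600 ± 486) and vehicle (2394), and each pair of neighbours in this order overlapped.

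The other Lpl probe set, 1431056_a_at, overlapped between groups in every comparison. It had signals of 609, 1473 and 993 in the combination arrays, of 954, 579 and 471 in GW, of 809, 759 and 619 in exercise and of 539, 729 and 585 in vehicle. Combination array 2 was the highest. The log2 differences were 0.06 ± 0.28 for GW against vehicle, 0.41 ± 0.28 for the combination against exercise, 0.24 ± 0.28 for exercise against vehicle and 0.65 ± 0.28 for the combination against vehicle (limma adjusted p between 0.470 and 0.982). The last of these was -0.01 without combination arrays 2 and 3. Over the 12 arrays the 2 Lpl probe sets had a Pearson r of 0.68 with each other, and of 0.57 after group means were subtracted.

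**Figure D3:**
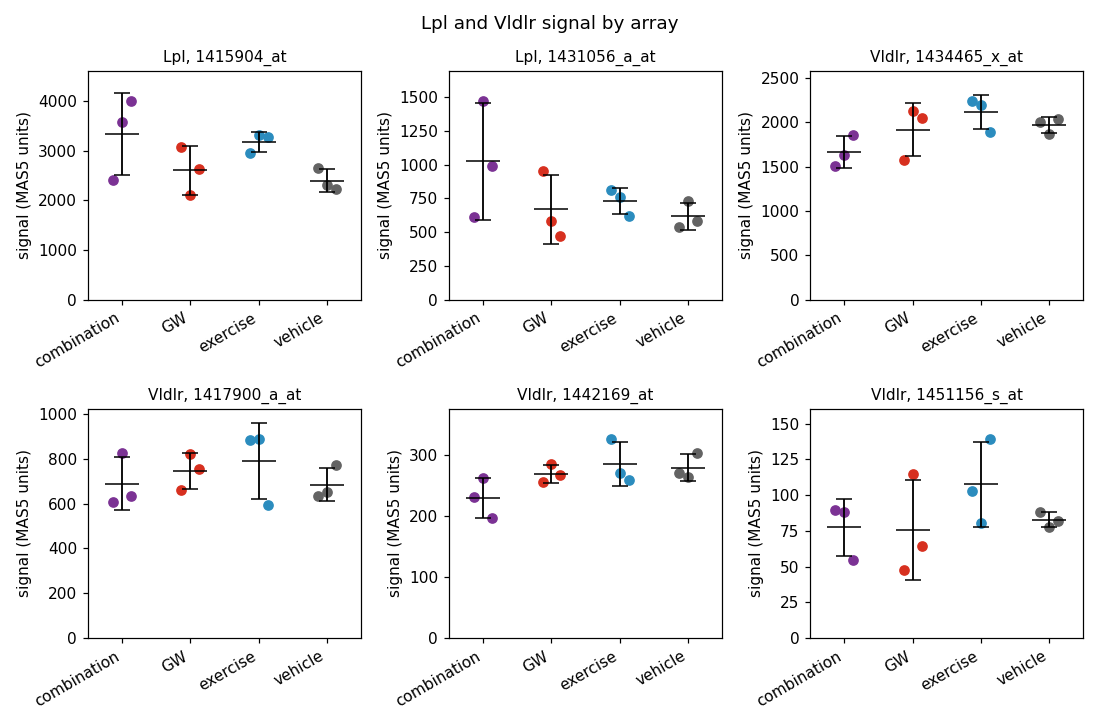
Signal (MAS5 units, linear axis from 0) of the 2 Lpl and 4 Vldlr probe sets on each array, with 1 point per array in the order of array number and a black mark with bars at the mean ± SD of each group (n = 3). Exercise lies above vehicle for Lpl in 1415904_at (3179 ± 204 and 2394 ± 230), and the combination has the lowest mean for Vldlr in 1434465_x_at (1666 ± 176).

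Vldlr, which binds the particles on which the lipase acts, was measured by 4 probe sets, none of them called in any of the 7 contrasts. Probe set 1434465_x_at had signals of 1511, 1630 and 1858 in the combination arrays and of 1575, 2126 and 2045 in GW. The exercise arrays had 2243, 2197 and 1893, and the vehicle arrays had 2003, 1869 and 2033. All combination arrays lay below all exercise and all vehicle arrays, and GW array 1 was as low as the combination. The combination differed from exercise by -0.34 ± 0.12 on the log2 scale (95% interval -0.59 to -0.10, limma adjusted p = 0.387). Of all probe sets, 8.21% had the combination below exercise without overlap and 9.18% had an unadjusted p under 0.05, as this probe set did. From vehicle the combination differed by -0.24 ± 0.12 (adjusted p = 0.504), and 8.88% of all probe sets had the combination below vehicle without overlap. GW differed from vehicle by -0.05 ± 0.12 (95% interval -0.30 to 0.20, adjusted p = 0.957), and exercise from vehicle by 0.10 ± 0.12 (adjusted p = 0.806). Averaged over sedentary and trained mice, drug differed from no drug by -0.20 ± 0.08 (95% interval -0.37 to -0.02, limma adjusted p = 0.553). In that comparison 0.317% of all probe sets were called and 8.37% had an unadjusted p under 0.05, 1434465_x_at among the second.

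The other Vldlr probe sets did not all follow it. In probe set 1442169_at the combination arrays had 231, 262 and 197, the GW arrays 256.3, 286 and 268, the exercise arrays 327, 270.5 and 259.7, and the vehicle arrays 272, 264 and 304. The combination again lay below vehicle without overlap, with a log2 difference of -0.29 ± 0.14 (limma adjusted p = 0.521), and overlapped with exercise, from which it differed by -0.31 ± 0.14 (adjusted p = 0.530). The difference from exercise had an unadjusted p under 0.05, as did 9.18% of all probe sets. Probe set 1417900_a_at had means of 689 ± 119 in the combination, 746 ± 79.3 in GW, 789 ± 170 in exercise and 685 ± 75.8 in vehicle (SD, n = 3), with overlap in every comparison. The dimmest, 1451156_s_at, had 89.7, 88.1 and 54.3 in the combination, 47.7, 115 and 64.6 in GW, 103, 80.7 and 139 in exercise, and 88.2, 77.8 and 82.1 in vehicle, also with overlap in every comparison. In the combination against exercise these last 2 differed by -0.18 ± 0.16 and -0.48 ± 0.31 (adjusted p = 0.792 and 0.699). All 4 probe sets thus had a negative difference there, between -0.48 and -0.18, none of them past the threshold. They measure 1 gene on the same arrays, so the shared sign is not that of 4 separate observations. With each array left out in turn, these differences lay between -0.66 and -0.08. Over the 12 arrays the 4 probe sets had correlations between 0.13 and 0.63 with each other. With drug averaged over sedentary and trained mice, 1442169_at, 1417900_a_at and 1451156_s_at differed by -0.18, -0.03 and -0.35, each with an unadjusted p over 0.05.

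**Figure D4:**
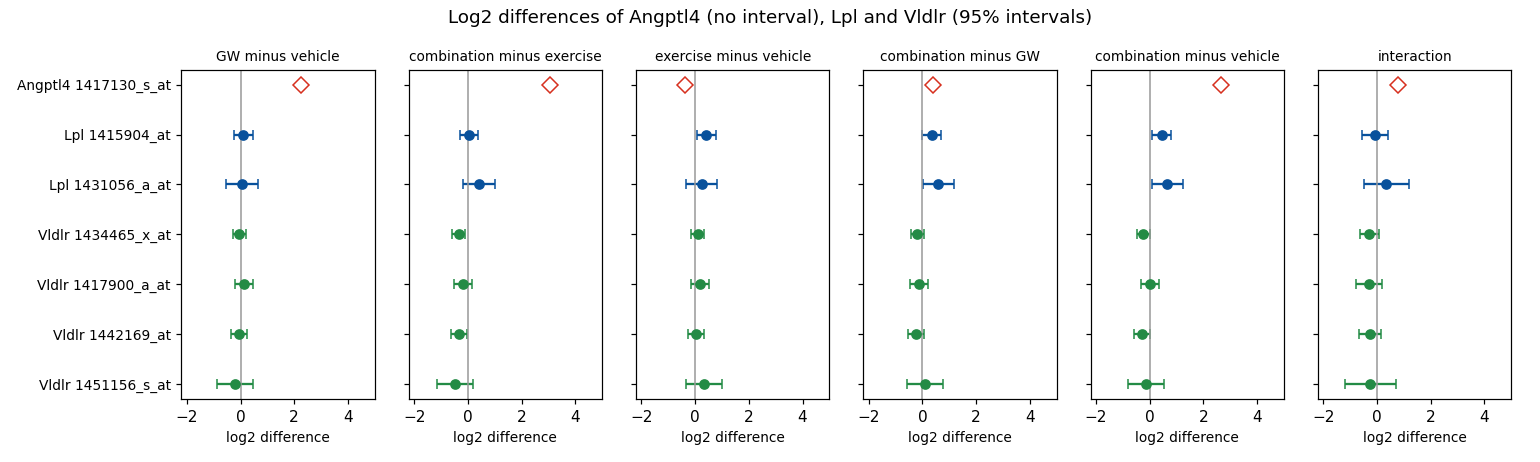
Log2 differences of the 7 member probe sets above the filter on low signal in 6 contrasts, with 95% intervals from limma for Lpl and Vldlr and an open diamond without interval for Angptl4, which was not tested. Angptl4 lies at 2.26 for GW minus vehicle and at 3.05 for combination minus exercise, while Lpl and Vldlr lie between -0.48 and 0.65 in all 6 contrasts.

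Genes that fold, carry, hold or cut lipoprotein lipase were set beside it as a list of 23 symbols. Of these 18 had a probe set of their own, 11 passed the filter on low signal, and the limma fit called 0 in each of the 7 contrasts. At an unadjusted p under 0.05 there were 0 of 11 in GW against vehicle, where 6.42% of all probe sets had one, 3 in the combination against exercise (9.18% of all), and 1 with drug averaged over sedentary and trained mice (8.37% of all). There were 1 or 2 in each of the other contrasts, where the share of all probe sets was 5.75% to 10.4%. Their median log2 difference was -0.07 for GW against vehicle and -0.06 for the combination against exercise, beside -0.00 and -0.01 over all probe sets tested. Single genes lay far from these medians, between -0.72 and 0.55 for GW against vehicle and between -1.17 and 1.12 for the combination against exercise. They lay between -1.13 and 1.46 for the combination against GW and between -1.71 and 1.84 for the interaction. Sel1l, which helps the enzyme leave the endoplasmic reticulum, had means of 354 ± 25.4 in the combination, 311 ± 32.6 in GW, 326 ± 22.7 in exercise and 328 ± 51.6 in vehicle. Sort1, a sorting receptor that binds the lipase, had 1059 ± 39.8 in exercise and 1220.1 ± 68.1 in vehicle (log2 difference -0.20, adjusted p = 0.489). The gene of the heparan sulfate proteoglycan perlecan, Hspg2, had 797 ± 194 in exercise and 547 ± 73.1 in vehicle (log2 difference 0.53, adjusted p = 0.316).

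Relatives of Vldlr and of Angptl4 were not called either. Of 22 symbols of the low density lipoprotein receptor family and its partners, 10 were tested, with 0 called by limma in each contrast. At an unadjusted p under 0.05 there was 1 of 10 in the combination against GW (5.75% of all probe sets), 1 in the interaction (6.79% of all) and 0 in the other 5 contrasts. Their median was -0.14 for GW against vehicle and 0.07 for the combination against exercise. Single genes lay between -0.78 and 0.19 for the first and between -0.38 and 0.61 for the second. They lay between -0.14 and 1.11 for the combination against GW and between -0.22 and 1.40 for the interaction. Lrpap1, the chaperone of these receptors, had 472 ± 75.2 in the combination and 609 ± 46.7 in exercise (log2 difference -0.38, adjusted p = 0.569). Mylip, a ubiquitin ligase that sends Vldlr to degradation, had 379 ± 70.1 in GW and 456 ± 29.6 in vehicle (log2 difference -0.28, adjusted p = 0.791). Sorl1, a sorting receptor of the family, differed by -0.12 between GW and vehicle (adjusted p = 0.860). In the angiopoietin-like list 3 of 8 symbols were tested, with 0 called by limma and 0 at an unadjusted p under 0.05 in each contrast, beside 5.75% to 10.4% of all probe sets. Angptl6 had 116 ± 23.5 in GW and 129 ± 41.3 in vehicle, while Angptl7 and Angpt2 had group means of 30.6 to 50.3, not far above the background level.

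Genes that carry fatty acids into the fibre, and other PPAR targets, were set beside Angptl4. Some of these genes were listed with their response to drug in these arrays known, so their counts are not independent evidence of a direction. Of 12 fatty acid entry genes tested, 2 rose in GW against vehicle and 1 in the combination against exercise (0 with combination arrays 2 and 3 left out), with none lower, and 0.0737% and 0.0958% of all probe sets were called higher in these comparisons. Slc27a1, a fatty acid transport protein, had means of 412 ± 42 in the combination, 330 ± 11.4 in GW, 141 ± 17.9 in exercise and 115 ± 17.3 in vehicle, and rose in both comparisons (log2 differences 1.53 and 1.55). Fabp3, the fatty acid binding protein of muscle, had 4508 ± 650 in GW and 2554 ± 442 in vehicle and rose there (log2 difference 0.82, limma adjusted p = 0.00779), but was not called in the combination against exercise (0.38, adjusted p = 0.340). The Fabp3 call in GW against vehicle was lost without an intensity trend (limma adjusted p = 0.201). It was also lost in a fit of only the groups compared (0.109) and without vehicle array 2 (0.0653). Fabp4, the binding protein of fat and endothelial cells and also a fat cell marker, had 2644 ± 1351 in the combination and 1710 ± 158 in exercise and was not called (adjusted p = 0.639). Vegfb, an endothelial growth factor linked to fatty acid uptake, differed by 0.13 between GW and vehicle (adjusted p = 0.870).

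Of 20 PPAR target genes tested, 5 rose in GW against vehicle and 3 in the combination against exercise (0 with combination arrays 2 and 3 left out), with none lower and list medians of 0.84 and 0.36 on the log2 scale. In the combination against vehicle 6 rose, where 0.147% of all probe sets were called higher, and with drug averaged over sedentary and trained mice 9 rose, where 0.236% were. The 5 in GW were Slc27a1, Fabp3, Acadl, a mitochondrial fatty acid dehydrogenase (log2 difference 1.34), Ucp3, a mitochondrial carrier (1.18), and Mlycd, which breaks down malonyl-CoA (0.85). The 3 in the combination against exercise were Slc27a1, Acadl (1.03) and Cpt1a, which prepares fatty acids for entry into mitochondria (1.46). With combination arrays 2 and 3 left out, none of these 3 was called: the log2 differences were 1.37 for Slc27a1, 1.03 for Acadl and 1.34 for Cpt1a (limma adjusted p = 0.105, 0.0833 and 0.344), with the single combination array assumed to vary like the other groups. The counts were then 0 in the combination against exercise, 2 (Slc27a1 and Acadl) in the combination against vehicle and 4 (Slc27a1, Acadl, Ucp3 and Mlycd) with drug averaged, while the same 5 were called in GW against vehicle. For exercise against vehicle, where limma called 0 of the 20 and 7 of the 20 had an unadjusted p under 0.05 beside 10.4% of all probe sets, the difference was 0.30 for Slc27a1, 0.32 for Acadl and -0.01 for Cpt1a. Pdk4, a kinase that restrains the use of pyruvate, had 3471 ± 486 in the combination, 3668 ± 1449 in GW, 2818 ± 461 in exercise and 1529 ± 472 in vehicle, and was not called in any contrast. Catalase (Cat) and the mitochondrial carrier gene Slc25a20 were called with drug averaged over sedentary and trained mice (log2 differences 0.93 and 0.75, adjusted p = 0.0127 and 0.00898), though not without combination arrays 2 and 3 (0.82 and 0.69, adjusted p = 0.231 and 0.131), and Hadhb, a subunit of the mitochondrial trifunctional protein, was not (0.25, adjusted p = 0.146).

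**Figure D5:**
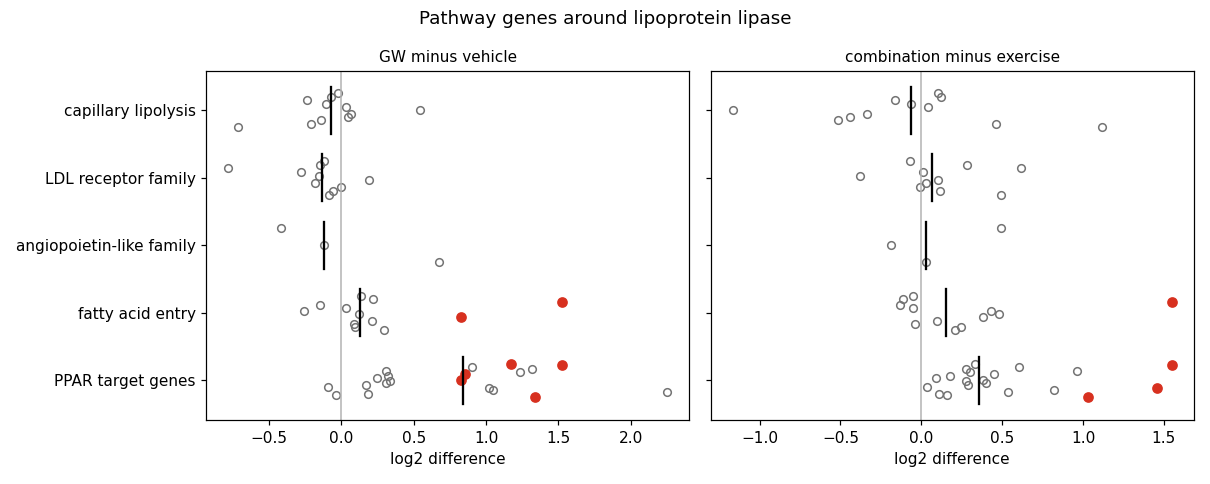
Log2 differences of the tested genes of 5 lists for GW minus vehicle (left) and combination minus exercise (right), with 1 circle per gene, filled red where the limma adjusted p was under 0.05, and a black line at the list median. Red circles stand in the lists of fatty acid entry and PPAR target genes (medians 0.84 and 0.36 for the second), with none among the genes of capillary lipolysis, the low density lipoprotein receptor family or the angiopoietin-like family.

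Correlations between the members depended on the probe set. Over the 12 arrays the log2 signal of Angptl4 had a Pearson r of 0.25 with Lpl (1415904_at) and of -0.41 with Vldlr (1434465_x_at), and Lpl had -0.17 with Vldlr. After group means were subtracted these were 0.40, 0.23 and -0.06. With the other probe sets, Angptl4 had r = 0.45 with Lpl (1431056_a_at) and -0.59 with Vldlr (1451156_s_at), and 0.46 and -0.46 after group means were subtracted. Lpl (1415904_at) had -0.26 with Vldlr (1451156_s_at), and -0.64 after group means were subtracted. With the fat cell marker Adipoq, Lpl had 0.66 and Angptl4 had 0.45, and after group means were subtracted 0.66 and 0.15. All these are descriptions over 12 arrays that share their groups and their scaling.

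By the same measure the genes most like Angptl4 were Polr1c (r = 0.91), Ech1 (0.90), Dbi (0.90), Tacc2 (0.88) and Acacb (0.88), and after group means were subtracted these had r between 0.68 and 0.85. Ech1, an enzyme of fatty acid breakdown and also on the PPAR target list, had means of 1962 in the combination, 1808 in GW, 1487 in exercise and 1464 in vehicle. Most like Lpl were Nrg4 (0.91), Dgcr2 (0.91), Cd36 (0.91), Plbd1 (0.90) and Acss2 (0.90). Cd36, which takes up fatty acids, had means of 486 in the combination, 368 in GW, 398 in exercise and 315 in vehicle in the probe set concerned, and had r = 0.84 with Adipoq. Most like Vldlr were Vdac1 (0.94), Dctn6 (0.89), Ugp2 (0.87), Pisd-ps3 (0.87) and Rnf26 (0.85). Rnf26 had group means of 27.8 to 47.3, not far above the background level. The genes listed as most like a member were the most correlated among the 12512 tested probe sets with a single gene name, leaving out those of the members. The Vldlr probe set used for this list was 1434465_x_at. Vdac1, Ugp2, Pisd-ps3 and Rnf26 were also measured there by probe sets ending in _x_at, while Dctn6 was not. The part of this shared probe set type in their likeness to Vldlr was not tested.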

How the data were processed

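Total RNA of quadriceps, pooled from 3 mice per array, was measured on 12 arrays. The authors deposited signal intensities, made with MAS5 per the submitters' processing notes (no version named). With 2% of values left out at each end, every array mean was 200.1. Symbols were those of the array annotation. Of all probe sets, 20393 had a single symbol, 691 had several and 1606 had none, and 0 symbols changed through RefSeq identifiers.

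Signals were taken to log2 as deposited, without a pseudocount. Leaving out 64 control probe sets, the upper 60% by mean log2 signal were tested, which gave 13575 probe sets (mean signal over 28.4) and 7 of the 8 of the members. With limma 3.58.1 in R 4.3.3 the 4 groups were fitted to all arrays with an intensity trend, and two-sided p-values were adjusted by Benjamini-Hochberg over all probe sets tested, at a threshold of 0.05. The members and lists were chosen with earlier results of these data known. Lists took 1 probe set per gene, that of highest mean signal. Genes named were those of the members, from each list those called (at most 8) and the 3 of highest mean signal, and the 5 most correlated with each member. On simulated data of 22626 probe sets, for GW against vehicle, 29.2% of 1.5-fold, 57.8% of 2-fold and 78% of 3-fold changes were called, 0 of them in the wrong direction. The number of arrays limits the precision.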

Additional observations from a re-analysis of the deposited data

How the results depend on the processing

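All 912 recomputed Lpl and Vldlr values stayed past no threshold, 44 of them with a changed sign, and the lowest adjusted p was 0.0518 (limma, Lpl 1415904_at, combination against vehicle, without combination array 1, log2 difference 0.67). The Angptl4 difference with drug kept its sign in every alternative, between 1.75 and 2.84 for GW against vehicle, 2.15 and 3.73 for the combination against exercise, 1.85 and 3.23 for the combination against vehicle, and 2.21 and 3.00 for drug averaged over sedentary and trained mice. Fits of only the groups compared were not run for that average and for the interaction. Array numbers showed little sign of pairing. Residuals of same-numbered arrays of different groups had correlations between -0.05 and 0.10 (18 pairs, mean 0.013). Those of different numbers lay between -0.08 and 0.06 (36 pairs, mean -0.007). With so few arrays per group, this check cannot exclude pairing. With the array number as replicate block, the counts of called probe sets were 11 for GW against vehicle, 26 for the combination against exercise, 35 for drug, 2 for exercise against vehicle, 1 for the combination against GW, 18 for the combination against vehicle and 1 for the interaction, where the fit without it called 13, 22, 43, 2, 0, 21 and 0, and no member was called.

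Other counts moved by more than 1.5 times. Quantile normalization and a robust prior each gave 0 for exercise against vehicle. Without an intensity trend the counts were 7 for GW against vehicle, 4 for the combination against exercise, 9 for drug, 0 for exercise against vehicle and 7 for the combination against vehicle. Fits of only the groups compared, on fewer arrays, gave 7, 40 and 33 for GW against vehicle, the combination against exercise and exercise against vehicle. With the fat cell marker score as a covariate the counts were 10 for the combination against exercise, 21 for drug, 25 for exercise against vehicle and 6 for the combination against GW. The same covariate changed the sign of Lpl 1415904_at in the combination against exercise (-0.30), drug (-0.14), the combination against GW (-0.0213) and the combination against vehicle (-0.00471), of Lpl 1431056_a_at in GW against vehicle (-0.0131), of Angptl4 in the combination against GW (-0.26), and of Vldlr in the combination against vehicle (-0.0734 in 1417900_a_at and 0.0833 in 1451156_s_at). Leaving out combination arrays 2 and 3 together, chosen after seeing the data, gave counts of 0 for the combination against exercise, 15 for drug, 22 for exercise against vehicle and 5 for the combination against GW. It changed the sign of Lpl 1415904_at in the combination against exercise (-0.40), drug (-0.15) and the combination against GW (-0.0944), of Lpl 1431056_a_at in the combination against exercise (-0.25), drug (-0.0949), the combination against GW (-0.0670), the combination against vehicle (-0.00751) and the interaction (-0.31), of Angptl4 in the combination against GW (-0.35), and of Vldlr in the combination against vehicle (-0.16 in 1417900_a_at and 0.12 in 1451156_s_at). The cause of these changes was not tested. Of the PPAR target genes, the fat cell marker covariate left 2 called in the combination against exercise (Slc27a1 and Acadl) of 3, 3 in the combination against vehicle of 6 and 5 with drug of 9. Without an intensity trend 5 of these 9 were called.

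Leaving out each array in turn gave counts of 10 to 18 for GW against vehicle, 8 to 83 for the combination against exercise, 20 to 74 for drug, 0 to 20 for exercise against vehicle, 0 to 35 for the combination against GW, 9 to 52 for the combination against vehicle and 0 to 9 for the interaction. The highest of these was without combination array 1 in each comparison but GW against vehicle (18, without vehicle array 1). Of the PPAR target genes 8 were then called in GW against vehicle without vehicle array 1, where all arrays gave 5, and 5 in the combination against exercise without combination array 1, where all arrays gave 3. For Lpl 1415904_at the log2 difference then ranged from -0.0237 to 0.25 in GW against vehicle, -0.11 to 0.25 in the combination against exercise, -0.00370 to 0.18 in drug and -0.22 to 0.15 in the interaction, and for Lpl 1431056_a_at from -0.23 to 0.28 in GW against vehicle. For Vldlr in GW against vehicle it ranged from -0.13 to 0.0842 in 1434465_x_at, -0.0927 to 0.0109 in 1442169_at and -0.57 to 0.0616 in 1451156_s_at. The last also ranged from -0.19 to 0.44 in the combination against GW, -0.26 to 0.11 in the combination against vehicle and -0.54 to 0.10 in the interaction. Vldlr ranged from -0.0764 to 0.0900 in exercise against vehicle (1442169_at), and in 1417900_a_at from -0.13 to 0.0188 in drug and -0.14 to 0.0894 in the combination against vehicle. Angptl4 ranged from -1.08 to 0.50 in exercise against vehicle and -0.12 to 1.46 in the interaction. At this number of arrays, small differences of Lpl and Vldlr have no settled sign.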

Other observations

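Of the 71 genes of the 5 lists that had a probe set, 17 lay below the filter on low signal and 4 of these were at or under the background level on all 12 arrays. Angptl8, another regulator of lipoprotein lipase, had signals between 2.05 and 43.8 and was at or under the background level of 23.5 on 11 arrays. Apoc2, the activator of the enzyme, had 12.3 to 27.3 in the combination, 7.05 to 19.1 in GW, 5.47 to 19.0 in exercise and 4.13 to 23.9 in vehicle, at or under the background level on 9 arrays. Apoa5, which stimulates lipolysis from plasma, had 3.16 to 30.6 and lay at or under it on 10 arrays. Lrp8, a close relative of Vldlr, had 8.40 to 46.2, at or under it on 8 arrays.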
